A study of Mus musculus with 12 samples.

Results

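Genes of eosinophils, basophils and mast cells were followed in mouse bone marrow cultures: the 6 eosinophil genes Prg2, Prg3, Epx, Ear1, Ear2 and Ear6, set against the 4 basophil and mast cell genes Mcpt8, Prss34, Fcer1a and Cpa3. They were chosen by name from knowledge of these cells and are 10 of the 55291 gene symbols in the count table. The study asked about short chain fatty acids (SCFA) and the arthritic bone remodelling that osteoclasts carry out, and its RNA-seq libraries fall into 4 groups of 3. STAT3C SCFA and STAT3C untreated mice carried R26STAT3Cstopfl/fl CD4Cre, a constitutively active STAT3 behind a stop cassette that Cre recombinase removes. Control SCFA and control untreated mice have the genotype label "control", with no allele named. The SCFA groups drank SCFA in their water until about 8 weeks of age, and the untreated groups got none. Marrow of all 4 groups was taken at 8 weeks, kept about 24 hours in alpha-MEM, and the cells that did not adhere were used for poly(A) RNA. The genotype label of 1 STAT3C untreated library includes "R26" and those of the other 5 STAT3C libraries do not. All 6 titles call the mice homozygous, and the 6 were taken as 1 genotype. CD4Cre is active mainly in T cells, so the allele is not one made for the granulocytes described here. The labels do not say that replicates came from separate mice, so p-values measure only the spread between these libraries.

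Eosinophils and basophils develop in the marrow from granulocyte progenitors, under interleukin 5, interleukin 3 and thymic stromal lymphopoietin, with GATA and C/EBP transcription factors setting their identity. Developing eosinophils transcribe the genes of their granule proteins at high level, namely the major basic protein (Prg2) with its homologue (Prg3), eosinophil peroxidase (Epx) and, in mice, a family of eosinophil-associated ribonucleases (Ear). Basophils and mast cells share the high-affinity IgE receptor, whose IgE-binding alpha chain is Fcer1a, and the granule carboxypeptidase Cpa3. Mcpt8 and Prss34 are serine proteases that in mice mark basophils above all.

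The genes lie at separate loci, apart from the neighbours Prg2 and Prg3 on chromosome 2 and the Ear cluster and Mcpt8 on chromosome 14. In the GENCODE M21 annotation of mm10 all 10 are protein-coding. The eosinophil genes are Prg2 (chr2:84980461-84983632, plus strand), Prg3 (chr2:84988215-84993886, plus), Epx (chr11:87864000-87875536, minus), Ear1 (chr14:43818765-43875517, minus), Ear2 (chr14:44102654-44103534, plus) and Ear6 (chr14:51853699-51854643, plus). The basophil and mast genes are Mcpt8 (chr14:56082166-56085273, minus), Prss34 (chr17:25298394-25300165, plus), Fcer1a (chr1:173221284-173227214, minus) and Cpa3 (chr3:20215620-20242181, minus). RefSeq gave the start region of 9 of the 10 genes. Those of the 3 Ear genes are shown because their likeness bears on how reads were counted, and those of Prg3, Prss34, Fcer1a and Cpa3 because they hold the sequence that GATA factors bind. Each sequence runs 5′ to 3′ on the gene's strand from 150 bases before the RefSeq start to 30 bases after it, on GRCm38.p6, and capitals mark GATAA or its reverse complement TTATC.
Ear1 (chr14:43819610-43819789, minus): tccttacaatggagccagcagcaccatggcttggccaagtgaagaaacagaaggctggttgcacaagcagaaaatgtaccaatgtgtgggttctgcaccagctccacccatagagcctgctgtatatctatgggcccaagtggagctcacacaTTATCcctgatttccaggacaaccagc
Ear2 (chr14:44102504-44102683, plus): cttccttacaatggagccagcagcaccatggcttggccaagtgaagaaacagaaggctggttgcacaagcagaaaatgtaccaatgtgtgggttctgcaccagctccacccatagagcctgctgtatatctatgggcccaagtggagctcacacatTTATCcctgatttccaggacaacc
Ear6 (chr14:51853618-51853797, plus): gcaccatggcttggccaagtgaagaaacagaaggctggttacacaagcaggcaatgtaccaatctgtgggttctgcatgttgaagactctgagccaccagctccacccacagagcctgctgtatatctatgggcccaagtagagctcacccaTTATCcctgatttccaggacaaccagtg
Prg3 (chr2:84988065-84988244, plus): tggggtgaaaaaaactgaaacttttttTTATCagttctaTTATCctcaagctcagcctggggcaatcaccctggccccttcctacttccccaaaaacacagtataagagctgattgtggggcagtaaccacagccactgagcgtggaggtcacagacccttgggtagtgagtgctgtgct
Prss34 (chr17:25298244-25298423, plus): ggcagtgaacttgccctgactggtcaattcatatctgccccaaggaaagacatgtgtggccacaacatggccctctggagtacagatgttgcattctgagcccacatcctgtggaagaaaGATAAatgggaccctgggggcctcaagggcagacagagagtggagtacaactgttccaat
Fcer1a (chr1:173227200-173227379, minus): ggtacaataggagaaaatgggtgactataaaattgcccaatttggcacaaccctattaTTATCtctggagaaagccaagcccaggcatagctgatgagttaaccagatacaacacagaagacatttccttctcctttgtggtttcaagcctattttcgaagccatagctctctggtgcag
Cpa3 (chr3:20242152-20242331, minus): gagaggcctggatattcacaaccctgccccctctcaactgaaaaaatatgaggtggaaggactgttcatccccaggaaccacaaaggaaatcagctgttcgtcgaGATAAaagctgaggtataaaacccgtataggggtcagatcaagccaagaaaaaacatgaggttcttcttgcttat

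The start regions of Ear1 and Ear2 were identical at all 177 aligned bases, gaps left out. Ear2 has an extra t just before the marked match. The region of Ear6 matched Ear1 at 95.0% of 160 aligned bases and Ear2 at 95.5% of 157. Each region has 180 bases, and bases opposite a gap were not counted. The match to GATAA began 3 bases after the first transcript base in Ear1, 6 after it in Ear2 and 2 in Ear6. In Cpa3 and Prss34 it lay 45 and 30 bases before the start. Prg3 held matches 123 and 111 bases before the start, and Fcer1a one 92 bases before it. In windows of 300 bases, from 250 before to 50 after the start, GATAA on either strand was present in 7 of the 9 genes, all but Epx and Mcpt8, and in 25.4% of all 32851 RefSeq start regions. The C/EBP pattern TTGCNNAA, no match of which overlapped one to GATAA in these genes, was present in Fcer1a, Ear1 and Ear2 and in 10.8% of all start regions. A match is a description of the letters and not evidence of binding.

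The Ear genes are also near copies along their transcripts. Ear1 and Ear2 were 96.8% identical over aligned bases, and Ear6 was 88.8% identical to Ear1 and 89.2% to Ear2. Of all 50-base stretches of the transcript, 57.4% of Ear1, 41.5% of Ear2 and 1.36% of Ear6 also occur in another gene of the family, and none of the other 7 genes shares such a stretch with another gene. Exons of Ear1 also overlap the pseudogene Ear-ps9 on the same strand. Counts of Ear1 and Ear2 are therefore uncertain, since reads in those stretches may have been divided or dropped, while Ear6 can largely be told from its copies. Prg2 and Prg3, at 68.3% identity, share no such stretch.

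The libraries held 16954355 to 20748995 counts, and every one of the 10 genes passed the filter on low counts, with 165 to 25712 counts per library. Levels are counts divided by library size (CPM) scaled by TMM factors, and differences as log2 fold changes from edgeR's quasi-likelihood test, called at a Benjamini-Hochberg adjusted p under 0.05 over all 15674 genes tested. The cells are labelled progenitors. The 4 progenitor markers summed to 220.2 to 549 CPM and 8 late neutrophil markers to 34290 to 76550 CPM. Summed T cell markers were 23.2 to 48.9 CPM. The mast cell label was not borne out for mature mast cells. Their proteases Mcpt1, Mcpt9 and Tpsab1 had 0 counts in all 12 libraries, Mcpt2 and Mcpt4 had 1 and 2 counts in total, and Tpsb2 and Cma1 had 26 and 27. Basophil genes were plentiful. In bulk RNA, fewer cells of a type and less RNA per cell cannot be told apart. The description labels give day 1 of month 3 for all untreated libraries and day 30 for all SCFA libraries, so SCFA and that date cannot be told apart.

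Prg2 had the highest level per length of the 10 genes in every group. It reached 918 ± 115 CPM per kb of exon in STAT3C SCFA, 1233 ± 125 in STAT3C untreated, 758 ± 27.0 in control SCFA and 1462 ± 172 in control untreated libraries (SD, n = 3 each). By library, Prg2 stood at 664, 854 and 789 CPM in STAT3C SCFA, 1141, 932 and 1025 in STAT3C untreated, 635, 659 and 613 in control SCFA, and 1096, 1380 and 1199 CPM in control untreated mice. All 6 SCFA libraries lay below all 6 untreated ones, whichever the genotype. Prg3 followed the same order at a lower level, with 46.3, 62.7 and 57.6 CPM in STAT3C SCFA, 94.7, 78.3 and 86.6 in STAT3C untreated, 48.9, 56.5 and 43.7 in control SCFA, and 82.0, 108 and 84.6 CPM in control untreated libraries. Epx, the enzyme that makes hypohalous acids in the granule, had 72.8, 94.9 and 107 CPM in STAT3C SCFA, 187, 153 and 197 in STAT3C untreated, 84.0, 84.0 and 78.1 in control SCFA, and 144, 301 and 237 CPM in control untreated libraries. For these 3 genes the ranges of the 2 untreated groups overlapped each other, and so did those of the 2 SCFA groups, except for Prg2, whose STAT3C SCFA libraries were all above the control SCFA ones. The share of all genes that split 6 against 6 libraries, by SCFA or by genotype, was not counted here or below.

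**Figure D1:**
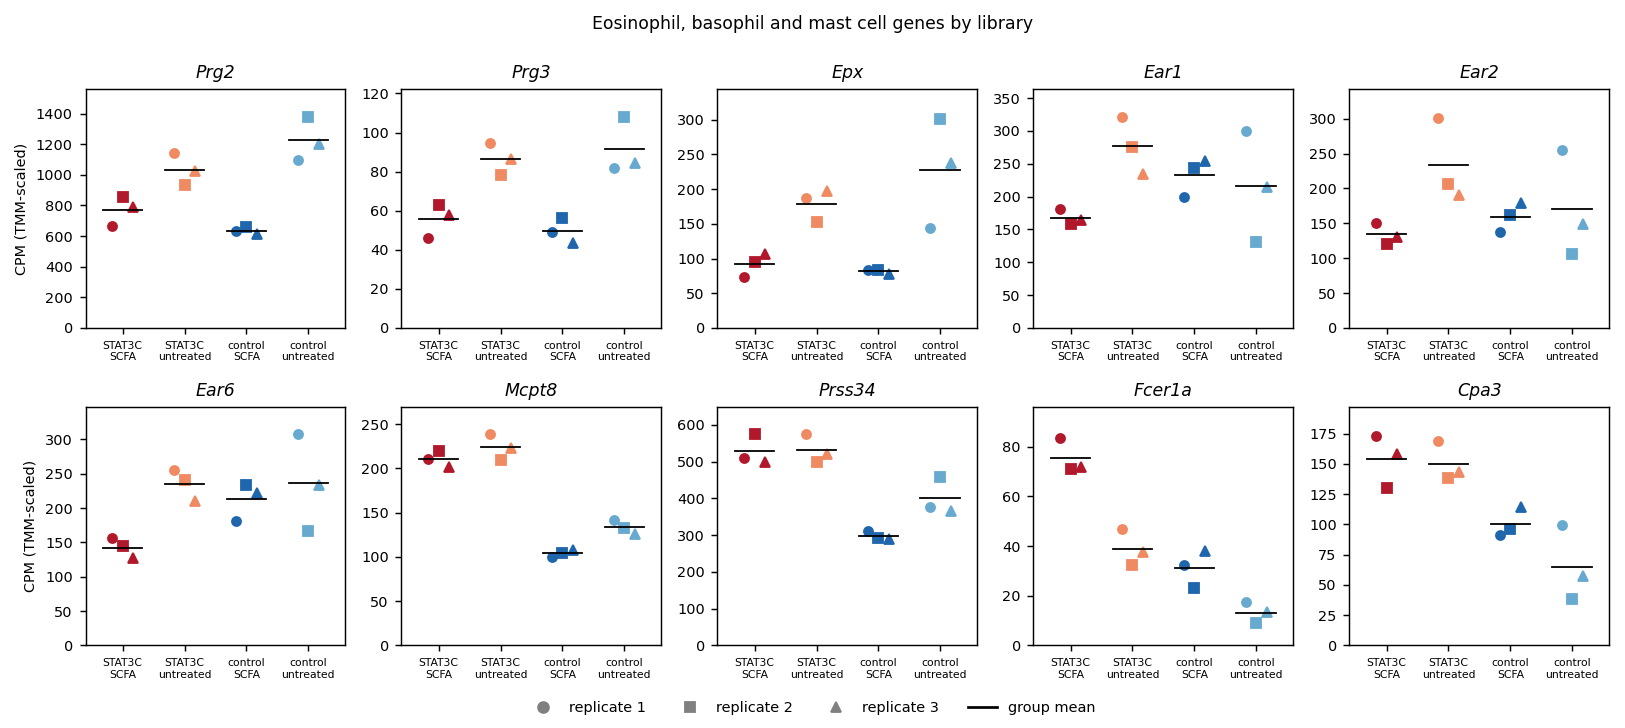
CPM of each of the 10 genes (vertical axes from 0, TMM-scaled) in the 12 libraries by group, with shapes for replicate numbers and a bar for the group mean. Prg2, Prg3 and Epx sit lower in both SCFA groups, Mcpt8 and Prss34 sit higher in both STAT3C groups, and Fcer1a is highest in STAT3C SCFA and lowest in control untreated libraries.

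The ribonuclease genes did not follow that order. Ear6, the best resolved of the 3, had 157, 144 and 127 CPM in STAT3C SCFA, 256, 241 and 210 in STAT3C untreated, 181, 234 and 222 in control SCFA, and 307, 167 and 234 CPM in control untreated libraries. The STAT3C SCFA libraries were below those of all other groups, which overlapped one another. Ear1 had 182, 158 and 165 CPM in STAT3C SCFA, 321, 276 and 235 in STAT3C untreated, 199, 243 and 255 in control SCFA, and 300.0, 132 and 215 CPM in control untreated libraries. Ear2 had 151, 121 and 131 CPM in STAT3C SCFA, 301, 207 and 191 in STAT3C untreated, 138, 161 and 179 in control SCFA, and 255, 106 and 150 CPM in control untreated libraries. In the control untreated group these 3 genes varied widely, with coefficients of variation of 39.0% for Ear1, 45.1% for Ear2 and 29.7% for Ear6, and in each the first replicate was highest and the second lowest. The count of Ear1 over that of Ear2 stayed between 1.07 and 1.51 in every library.

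The basophil proteases split the libraries by genotype. Mcpt8 had 211, 219 and 202 CPM in STAT3C SCFA, 238, 209 and 223 in STAT3C untreated, 100, 105 and 108 in control SCFA, and 141, 132 and 126 CPM in control untreated libraries. All 6 STAT3C libraries were above all 6 control ones, the 2 STAT3C groups overlapped, and the control SCFA libraries were all below the control untreated ones. Prss34 had 509.6, 576 and 498 CPM in STAT3C SCFA, 574, 499.5 and 519.8 in STAT3C untreated, 312, 292 and 289 in control SCFA, and 377, 457 and 364 CPM in control untreated libraries. Its order was the same, and per length it ranked 2 or 3 of the 10 genes in every group, from 244 ± 10.3 CPM per kb in control SCFA to 435 ± 31.4 in STAT3C untreated libraries (SD, n = 3 each).

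Fcer1a and Cpa3 had an order of their own. Fcer1a had 83.7, 71.1 and 71.8 CPM in STAT3C SCFA, 46.8, 32.5 and 37.6 in STAT3C untreated, 32.4, 23.2 and 38.2 in control SCFA, and 17.5, 8.85 and 13.3 CPM in control untreated libraries. The STAT3C SCFA libraries were above all others, the control untreated ones below all others, and the 2 groups between them overlapped. Cpa3 had 173, 130.3 and 158 CPM in STAT3C SCFA, 169, 138 and 143 in STAT3C untreated, 91.2, 96.4 and 114 in control SCFA, and 99.4, 38.3 and 57.3 CPM in control untreated libraries. All 6 STAT3C libraries were above all 6 control libraries, and the ranges of the 2 treatments overlapped within each genotype.

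Without SCFA, the basophil and mast cell genes were higher in STAT3C than in control mice and the eosinophil genes showed no called difference. All 4 basophil and mast genes passed the test, all higher and all without overlap, beside 14.5% of all genes tested that were called in either direction, 6.58% higher, 7.92% lower, 32.3% whose groups did not overlap and 14.7% whose STAT3C libraries were all above the control ones. Fcer1a rose most, by 2.95-fold (log2 fold change 1.56 ± 0.24 SE, edgeR adjusted p 9.77e-04). Cpa3 was 2.31-fold higher (1.21 ± 0.25, edgeR adjusted p 0.00816), Mcpt8 1.68-fold higher (0.75 ± 0.10, edgeR adjusted p 4.59e-04) and Prss34 1.33-fold higher (0.41 ± 0.12, edgeR adjusted p 0.0344). The median log2 fold change of the 4 was 0.98, beside -0.04 over all genes tested. The call of Prss34 was lost without control untreated 1 (adjusted p 0.0514) or 3 (0.148), or without STAT3C untreated 1 (0.102), 2 (0.0558) or 3 (0.0866), while the other 3 genes were called in all 12 fits that left out 1 library. Prss34 was also not called without the filter on low counts (0.0766) or with only the groups compared (0.0968), so that 3 of the 4 were called in these fits.

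Of the 6 eosinophil genes, 0 were called without SCFA by edgeR, 0 had an unadjusted p under 0.05, DESeq2 called 0, and limma-voom called 1, Ear2. The log2 fold changes were -0.25 ± 0.13 for Prg2, -0.08 ± 0.15 for Prg3, -0.35 ± 0.21 for Epx, 0.36 ± 0.22 for Ear1, 0.45 ± 0.26 for Ear2 and -0.00 ± 0.18 for Ear6 (SE). Their median was -0.04, beside -0.04 over all genes tested, and the libraries of the groups overlapped for each of the 6. Control untreated 1 decided 3 of these results. Without it Epx was called lower (log2 fold change -0.61, edgeR adjusted p 0.0137), and Ear1 and Ear2 were called higher (0.65, adjusted p 0.0246, and 0.84, adjusted p 0.00978). Between the same groups, summed late neutrophil markers were 56550 to 76550 CPM in STAT3C and 34290 to 53940 CPM in control libraries, monocyte markers 6512 to 6873 and 4093 to 4729 CPM, progenitor markers 473 to 549 and 220.2 to 231 CPM, erythroid markers 7366 to 10610 and 15560 to 17950 CPM, B lineage markers 333 to 374 and 1002 to 1223 CPM, and T cell markers 25.9 to 31.0 and 43.0 to 48.9 CPM. Megakaryocyte and neutrophil precursor markers overlapped. Within the erythroid list 3 of 7 markers were called lower and 1 higher in STAT3C mice, beside 14.5% of all genes called. The part of these cell types in the differences above was not tested.

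Under SCFA, 3 of the 4 basophil and mast genes were again higher in STAT3C mice. The background was 17.1% of genes called in either direction, 8.77% higher and 8.37% lower. Mcpt8 was 2.02-fold higher (log2 fold change 1.01 ± 0.10 SE, edgeR adjusted p 1.15e-05), Prss34 1.77-fold (0.83 ± 0.12, edgeR adjusted p 3.34e-04) and Fcer1a 2.42-fold (1.27 ± 0.23, edgeR adjusted p 0.00207), and leaving out any 1 library kept these calls. Cpa3 did not overlap between the groups but missed the threshold (0.61 ± 0.25, edgeR adjusted p 0.108). It was called without control untreated 1 (0.0114) or 2 (0.022), libraries that enter only through the shared estimate of the spread. It was also called by limma-voom (0.00931), without the filter on low counts (9.71e-04) and with only the groups compared (0.00487), so that all 4 genes were called in these 3 fits. The median of the 4 was 0.92, beside -0.02 over all genes tested. No overlap with all STAT3C libraries higher was seen in all 4, and in 19.8% of all genes tested, with 39.5% free of overlap in either direction.

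Among the eosinophil genes, 1 of 6 was called under SCFA. Ear6 was 1.49-fold lower in STAT3C SCFA than in control SCFA libraries (log2 fold change -0.58 ± 0.19 SE, edgeR adjusted p 0.0458). That call was lost in 10 of the 12 fits that left out 1 library, namely without any 1 of the 6 SCFA libraries (adjusted p 0.0557 to 0.208), of the 3 STAT3C untreated libraries (0.08 to 0.0805) or control untreated 3 (0.0675). It was lost too with RLE size factors (0.0555) and with the replicate block (0.0517). Ear1, at -0.47 ± 0.22 (edgeR adjusted p 0.170), was lower without overlap and was called once control untreated 2 was left out (0.0415), by limma-voom (0.0243) and with only the groups compared (0.0232). Prg2, at 0.27 ± 0.13 (edgeR adjusted p 0.164), was higher without overlap and was called by limma-voom (0.0252). Prg3, Epx and Ear2 overlapped between the groups, at 0.16 ± 0.16, 0.16 ± 0.22 and -0.25 ± 0.26. The median of the 6 was -0.05. Here summed B lineage markers were 88.4 to 109 CPM in STAT3C and 881 to 944 CPM in control libraries, erythroid markers 2081 to 2426 and 10330 to 12360 CPM, monocyte markers 6637 to 7429 and 5086 to 5700 CPM, neutrophil precursor markers 2583 to 3486 and 1773 to 2171 CPM, megakaryocyte markers 954 to 1154 and 627 to 710.1 CPM, and T cell markers 29.3 to 30.8 and 23.2 to 26.5 CPM. Progenitor and late neutrophil markers overlapped. Within the erythroid list 5 of 7 markers were called lower and 2 higher in STAT3C mice, beside 17.1% of all genes called. The part of these cell types in the differences was not tested.

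**Figure D2:**
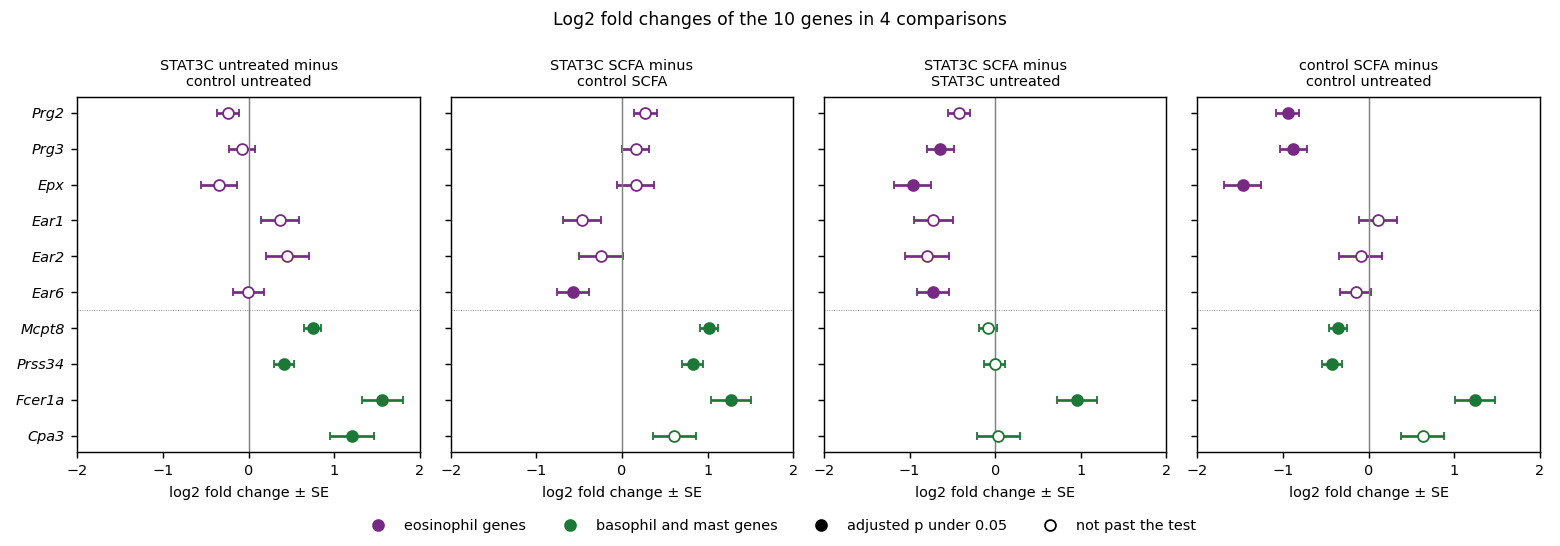
Log2 fold change with its SE (horizontal axes) for each of the 10 genes in 4 comparisons of 3 against 3 libraries, with filled points for genes called by edgeR. In the 2 genotype comparisons the 4 basophil and mast genes lie right of 0, from 0.41 to 1.56, and in the 2 SCFA comparisons Prg2, Prg3 and Epx lie left of it, from -1.47 to -0.43.

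SCFA went with lower Prg2, Prg3 and Epx in control mice. Epx fell 2.77-fold (log2 fold change -1.47 ± 0.22 SE, edgeR adjusted p 0.00262), Prg2 1.93-fold (-0.95 ± 0.13, edgeR adjusted p 0.00146) and Prg3 1.84-fold (-0.88 ± 0.16, edgeR adjusted p 0.00501), each without overlap. These 3 of the 6 eosinophil genes were called, beside 21.6% of all genes tested in either direction, 8.72% higher and 12.9% lower, and 38.5% whose groups did not overlap. Each was called in all 18 alternative fits. The Ear genes overlapped between the groups and were not called, at 0.11 ± 0.22 for Ear1, -0.09 ± 0.26 for Ear2 and -0.15 ± 0.18 for Ear6 (edgeR adjusted p 0.768, 0.824 and 0.595). The median of the 6 was -0.52, beside 0.04 over all genes tested.

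The basophil and mast genes went both ways in control mice given SCFA. Fcer1a rose 2.37-fold (log2 fold change 1.24 ± 0.24 SE, edgeR adjusted p 0.00615). Prss34 fell 1.34-fold (-0.42 ± 0.12, edgeR adjusted p 0.0230) and Mcpt8 fell 1.28-fold (-0.35 ± 0.10, edgeR adjusted p 0.0279), and all 3 were without overlap. Cpa3, with overlapping libraries, was at 0.63 ± 0.25 (edgeR adjusted p 0.0843) and was called without control untreated 1 (log2 fold change 1.03, adjusted p 0.00167). It was also called without the filter on low counts (0.00332), by DESeq2 (0.0428), by limma-voom (0.00537) and with the replicate block (0.0389). The fall of Prss34 lost its call without control untreated 2 (0.0608) or control SCFA 2 (0.0865) or 3 (0.11), and that of Mcpt8 without any 1 of the control SCFA libraries (0.0968 to 0.105) or STAT3C SCFA 3 (0.0537). With only the groups compared neither was called (0.0745 for Prss34 and 0.0917 for Mcpt8), nor was Mcpt8 without the filter (0.0959). Neutrophil precursor markers, which share the early granule stage, summed to 1773 to 2171 CPM in control SCFA and 2743 to 3950 CPM in control untreated libraries. Late neutrophil markers summed to 57610 to 62490 and 34290 to 53940 CPM, erythroid markers to 10330 to 12360 and 15560 to 17950 CPM, and progenitor markers to 284 to 324 and 220.2 to 231 CPM. Monocyte markers summed to 5086 to 5700 and 4093 to 4729 CPM, megakaryocyte markers to 627 to 710.1 and 441 to 521 CPM, B lineage markers to 881 to 944 and 1002 to 1223 CPM, and T cell markers to 23.2 to 26.5 and 43.0 to 48.9 CPM. The sums do not speak for each marker. Of 8 late neutrophil markers 2 were called higher and 2 lower with SCFA, and of 6 monocyte markers 1 higher and 2 lower. Of 5 megakaryocyte markers 2 were called higher and 1 lower, and of 6 B lineage markers 1 higher and 2 lower. Of all genes tested 21.6% were called. Their part was not tested for any of these cell types.

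In STAT3C mice, all 6 eosinophil genes were lower without overlap under SCFA, and 3 of them passed the test. Called genes made up 9.39% of all genes tested, 3.82% being higher and 5.57% lower. The groups did not overlap in 30.1% of all genes, and 16.2% had every STAT3C SCFA library below every STAT3C untreated one. Epx fell 1.95-fold (log2 fold change -0.97 ± 0.22 SE, edgeR adjusted p 0.0124), Ear6 1.65-fold (-0.72 ± 0.19, edgeR adjusted p 0.0253) and Prg3 1.56-fold (-0.64 ± 0.16, edgeR adjusted p 0.0188). Ear1, Ear2 and Prg2 were close to the threshold, at -0.72 ± 0.22, -0.80 ± 0.26 and -0.43 ± 0.13 (edgeR adjusted p 0.0576, 0.0682 and 0.0536). The median of the 6 was -0.72, beside -0.00 over all genes tested. With either control untreated 1 or 2 left out, which are not among the libraries compared, all 6 were called, with adjusted p of Prg2, Ear1 and Ear2 of 0.032, 0.0175 and 0.0143 without the first and 0.0293, 0.00606 and 0.0196 without the second. All 6 were also called by DESeq2, by limma-voom and with only the groups compared, and Ear1 and Ear2 without the filter on low counts (2.65e-04 and 3.92e-05). The call of Prg3 was lost without STAT3C untreated 1 (0.0654) or 3 (0.0559), and that of Ear6 without STAT3C untreated 1 (0.114) or 2 (0.0975) or STAT3C SCFA 2 (0.104) or 3 (0.139).

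In STAT3C mice given SCFA the basophil proteases were not called, while Fcer1a rose. Mcpt8 was at -0.09 ± 0.10, Prss34 at -0.01 ± 0.12 and Cpa3 at 0.04 ± 0.25 on the log2 scale (edgeR adjusted p 0.673, 0.977 and 0.951), all with overlapping libraries. Fcer1a was 1.94-fold higher (0.96 ± 0.23, edgeR adjusted p 0.0181), with no overlap, so 1 of the 4 was called. Its call was lost without STAT3C untreated 2 (0.104) or 3 (0.0586), or STAT3C SCFA 1 (0.0655), 2 (0.0542) or 3 (0.0563). Between these groups erythroid markers summed to 2081 to 2426 CPM in STAT3C SCFA and 7366 to 10610 CPM in STAT3C untreated libraries, B lineage markers to 88.4 to 109 and 333 to 374 CPM, progenitor markers to 265 to 299 and 473 to 549 CPM, and megakaryocyte markers to 954 to 1154 and 461 to 577 CPM. Neutrophil precursor, late neutrophil, monocyte and T cell markers overlapped. Within the erythroid list 6 of 7 markers were called lower and 1 higher with SCFA, beside 9.39% of all genes called. The part of these cell types was not tested.

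Whether the SCFA difference itself depended on genotype was tested as an interaction, for which 25.0% of all genes were called. Of the 10 genes, 0 were called by edgeR. An unadjusted p under 0.05 was reached by 4, namely Prg2 (interaction 0.52 ± 0.18 on the log2 scale, edgeR adjusted p 0.0514), Ear1 (-0.83 ± 0.32, adjusted p 0.0684), Prss34 (0.42 ± 0.17, adjusted p 0.0827) and Ear6 (-0.57 ± 0.26, adjusted p 0.121). The estimated SCFA difference of Prg2 was -0.43 in STAT3C and -0.95 in control mice. That of Ear1 was -0.72 and 0.11, and that of Ear6 -0.72 and -0.15. A dependence on genotype was not called by edgeR for these genes. DESeq2 called 3 of the 10 (Ear1, Prg2 and Prss34) and limma-voom 5 (the 3 Ear genes, Prg2 and Cpa3). Leaving out control untreated 1 gave 7 calls by edgeR, those of Epx (0.80, adjusted p 0.0123), Ear1 (-1.07, 0.00658), Ear2 (-1.05, 0.0104), Ear6 (-0.74, 0.0196), Prg2 (0.65, 0.01), Prss34 (0.52, 0.0275) and Cpa3 (-0.97, 0.00883), and leaving out STAT3C SCFA 1 gave that of Prg2 (0.57, 0.0303).

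Summed per library, the eosinophil genes separated the libraries by SCFA and the basophil and mast genes by genotype. The 6 eosinophil genes summed to 1361 ± 81.9 CPM in STAT3C SCFA, 2044 ± 224 in STAT3C untreated, 1372 ± 77.5 in control SCFA and 2166 ± 40.6 CPM in control untreated libraries (SD, n = 3 each). All SCFA libraries, at 1272 to 1437 CPM, lay below all untreated ones, at 1888 to 2301 CPM. The Ear genes alone overlapped in control mice, at 518.5 to 656.1 CPM with SCFA and 404.5 to 862.3 CPM without. The 4 basophil and mast genes summed to 968 ± 34.2 CPM in STAT3C SCFA, 943 ± 75.9 in STAT3C untreated, 534 ± 16.4 in control SCFA and 611 ± 43.4 CPM in control untreated libraries. All STAT3C libraries, at 879 to 1027 CPM, lay above all control ones, at 517 to 637 CPM. Within control mice this sum was also lower with SCFA, at 517 to 549 CPM against 561 to 637 CPM. The ratio of the eosinophil to the basophil and mast sum was 1.41 ± 0.0928 in STAT3C SCFA, 2.16 ± 0.0696 in STAT3C untreated, 2.57 ± 0.193 in control SCFA and 3.55 ± 0.194 in control untreated libraries. The 4 groups did not overlap in this ratio, which is free of the scaling between libraries, and since Prg2 and Prss34 make up much of the sums it weighs the genes unequally.

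**Figure D3:**
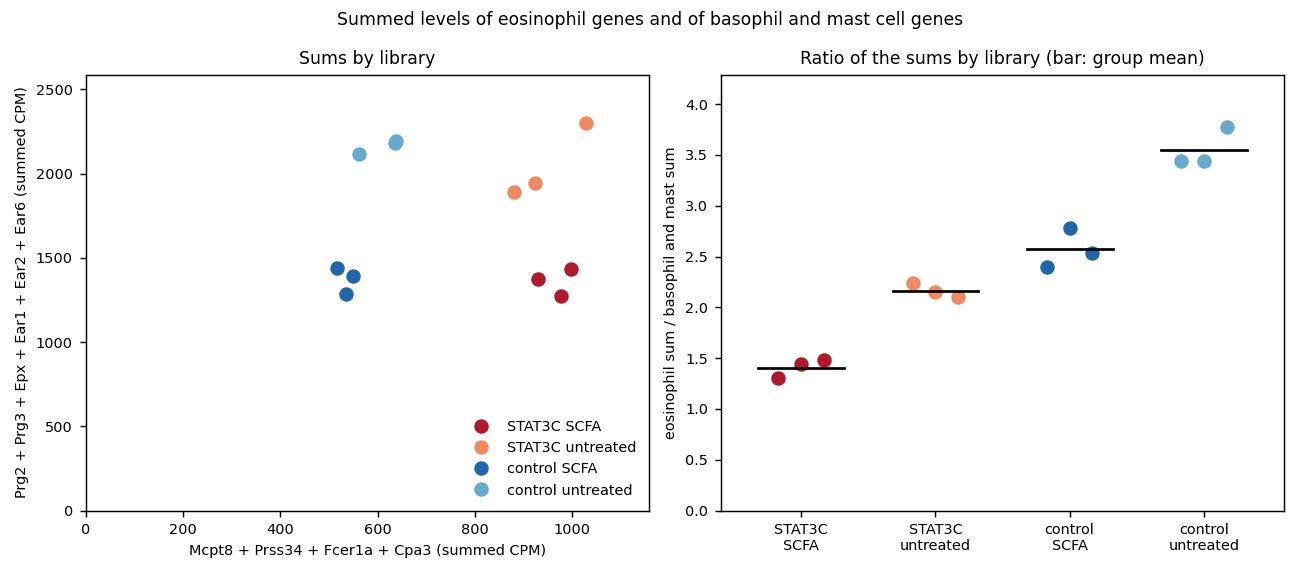
Left, summed CPM of the 6 eosinophil genes (vertical) against that of the 4 basophil and mast genes (horizontal) in the 12 libraries, both axes from 0, and right, the ratio of the sums by group with a bar for the mean. SCFA libraries lie at 1272 to 1437 CPM on the vertical axis and STAT3C libraries at 879 to 1027 CPM on the horizontal one, and the ratio runs from 1.30 in a STAT3C SCFA library to 3.78 in a control untreated one.

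Within each set the genes did not keep fixed proportions, and the following subsets were chosen after their values were seen. The log2 ratio of the Ear sum to the sum of Prg2, Prg3 and Epx was -0.68, -1.26 and -1.18 in STAT3C SCFA, -0.70, -0.69 and -1.04 in STAT3C untreated, -0.57, -0.32 and -0.16 in control SCFA, and -0.62, -2.15 and -1.35 in control untreated libraries. Control SCFA libraries were above all others, and the control untreated libraries spanned the widest range. The log2 ratio of Fcer1a and Cpa3 to Mcpt8 and Prss34 was -1.49, -1.98 and -1.60 in STAT3C SCFA, -1.92, -2.05 and -2.04 in STAT3C untreated, -1.74, -1.73 and -1.38 in control SCFA, and -2.15, -3.64 and -2.80 in control untreated libraries. Here the control untreated libraries were below all others, and the second replicate was lowest. The same library, control untreated 2, had the highest Prg2, Prg3, Epx and Prss34 of its group and the lowest Ear1, Ear2, Ear6, Fcer1a and Cpa3.

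**Figure D4:**
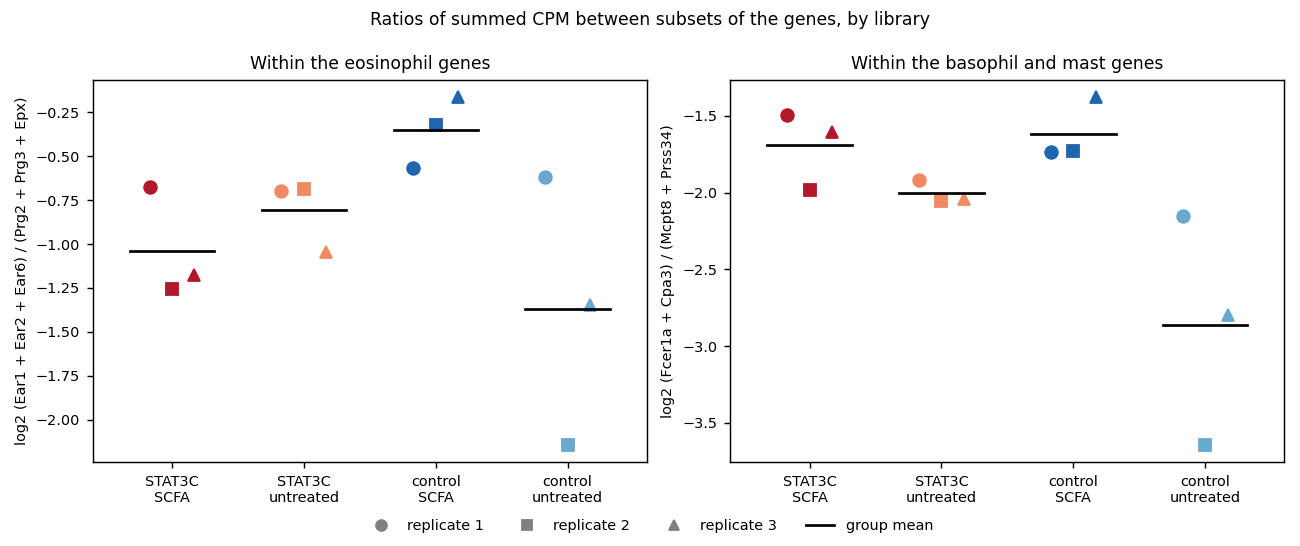
Log2 ratio of the Ear1, Ear2 and Ear6 sum to the Prg2, Prg3 and Epx sum (left) and of the Fcer1a and Cpa3 sum to the Mcpt8 and Prss34 sum (right) by library, with bars for group means. Control untreated libraries range from -2.15 to -0.62 on the left and from -3.64 to -2.15 on the right, and replicate 2 is the lowest in both.

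Other genes of the 2 lineages were read from lists chosen with earlier results of these data known. Their counts stand beside 14.5% of all genes called for genotype without SCFA, 17.1% under SCFA, 9.39% for SCFA in STAT3C mice, 21.6% in control mice and 25.0% in the interaction. Of 23 further basophil and mast genes 13 were tested, and without SCFA 4 were higher in STAT3C mice and 0 lower. Granzyme B (Gzmb), a cytotoxic protease that basophils, mast cells and lymphocytes can make, rose most, with 3.42, 3.50 and 4.31 CPM in STAT3C untreated and 0.799, 0.107 and 0.636 CPM in control untreated libraries (log2 fold change 2.85 ± 0.47 SE, edgeR adjusted p 0.00184). Under SCFA Gzmb had 6.98, 7.77 and 6.95 CPM in STAT3C and 0.761, 0.834 and 0.890 CPM in control libraries (3.12 ± 0.46, edgeR adjusted p 4.26e-04), and its call held in all 12 fits that left out 1 library in both comparisons. The 2 remaining chains of the IgE receptor, Ms4a2 (beta) and Fcer1g (gamma, shared with other Fc receptors), were higher without SCFA at 0.88 ± 0.26 (edgeR adjusted p 0.0350) and 0.53 ± 0.13 (edgeR adjusted p 0.0149). The call of Ms4a2 was lost without control untreated 2 or 3, any 1 of the STAT3C untreated libraries, control SCFA 2 or STAT3C SCFA 3 (adjusted p 0.0538 to 0.137), and that of Fcer1g without control untreated 2 or 3 or STAT3C untreated 1 or 2 (0.0543 to 0.0742). With only the groups compared neither was called (0.0715 and 0.0694). The median of the 13 was 0.38.

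Under SCFA 3 of those 13 genes were higher in STAT3C mice and 0 lower, the others called being Hdc and Ptgs1. Hdc, which makes histamine, had 294, 349.9 and 378 CPM in STAT3C SCFA and 205, 203 and 159 CPM in control SCFA libraries, without overlap (log2 fold change 0.85 ± 0.15 SE, edgeR adjusted p 0.00175). The prostaglandin enzyme Ptgs1 was at 0.57 ± 0.13 (edgeR adjusted p 0.00838). Hdc was lower with SCFA in control mice (-0.80 ± 0.15, edgeR adjusted p 0.00597), where 2 of the 13 rose and 1 fell, and Ptgs1 was higher with SCFA in STAT3C mice (0.75 ± 0.13, edgeR adjusted p 0.00234), where 1 rose and 0 fell. In control mice the 2 that rose under SCFA were the surface receptor Cd200r3 (0.72 ± 0.19, edgeR adjusted p 0.0169) and the monoamine transporter Slc18a2 (0.60 ± 0.20, edgeR adjusted p 0.0476). The call of Cd200r3 was lost without control untreated 2 or 3 or control SCFA 1 or 3 (0.0535 to 0.0855), and that of Slc18a2 in 11 of 12 fits (0.0526 to 0.215), all but the one without control untreated 1, and with RLE (0.0511), the replicate block (0.0551) and only the groups compared (0.0913).

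Of 8 further eosinophil genes, all were tested and the surface marker Siglecf was called in none of the comparisons, with group means of 24.1 to 26.9 CPM. Il5ra, the receptor chain that binds interleukin 5, had 14.9, 16.3 and 22.1 CPM in STAT3C SCFA, 26.8, 33.4 and 28.6 in STAT3C untreated, 29.4, 37.6 and 33.8 in control SCFA, and 26.3, 22.5 and 26.8 CPM in control untreated libraries. The STAT3C SCFA libraries were below all others. It was lower in STAT3C than control mice under SCFA (-0.92 ± 0.18, edgeR adjusted p 0.00308) and lower with than without SCFA in STAT3C mice (-0.74 ± 0.18, edgeR adjusted p 0.0178), a call lost without STAT3C untreated 2 (0.0746) or STAT3C SCFA 1 (0.0503) or 2 (0.0785). Hpgds, the hematopoietic prostaglandin D synthase, had 29.3, 28.7 and 25.1 CPM in STAT3C SCFA, 14.4, 13.4 and 17.8 in STAT3C untreated, 53.1, 48.4 and 53.7 in control SCFA, and 18.3, 7.03 and 15.5 CPM in control untreated libraries. In control mice it rose 1.93 ± 0.26 on the log2 scale with SCFA (edgeR adjusted p 0.00133), the opposite direction to Prg2, Prg3 and Epx. The lipoxygenase gene Alox15 went the same way as these 3 in control mice (-0.70 ± 0.13, edgeR adjusted p 0.00578) and was called in all alternatives. Padi2, a peptidylarginine deiminase, was lower there (-0.85 ± 0.24, edgeR adjusted p 0.0249), a call lost without control untreated 2 or control SCFA 2 or 3 (0.0980 to 0.116) and with only the groups compared (0.0504). Counts of genes called higher and lower in this list were 0 and 2 without SCFA and 2 and 2 under SCFA for genotype, and 2 and 1 in STAT3C and 2 and 3 in control mice for SCFA. The 2 lower without SCFA were Alox15 (-0.58 ± 0.13, edgeR adjusted p 0.0122) and Alox5 (-0.65 ± 0.19, edgeR adjusted p 0.0352). They were called in 10 and 3 of the 12 fits that left out 1 library, and neither with only the groups compared. Under SCFA Alox5 was higher in STAT3C mice (0.67 ± 0.19, edgeR adjusted p 0.0258), a call kept in 8 of 12 fits. In STAT3C mice it was higher with SCFA (0.69 ± 0.19, edgeR adjusted p 0.0355), kept in 6. Of 12 further Ear and related ribonuclease symbols, 8 are not analysed here, and 0 of the 2 tested were called by edgeR in any comparison (1 with an unadjusted p under 0.05, 0 by DESeq2 and 0 by limma-voom, over the 5 tests).

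Of 12 receptors for the cytokines of these lineages, 4 were higher and 1 lower in STAT3C mice under SCFA, and 0 were called without it by edgeR (1 with an unadjusted p under 0.05, 0 called by DESeq2 and 1 by limma-voom). In the interaction 3 were called with a higher and 1 with a lower SCFA difference in STAT3C mice. Il3ra, the interleukin 3 receptor alpha chain, had 5.74, 6.65 and 7.70 CPM in STAT3C SCFA and 2.47, 1.96 and 1.84 CPM in control SCFA libraries (1.67 ± 0.26, edgeR adjusted p 6.95e-04). Crlf2, the receptor chain for thymic stromal lymphopoietin, was at 0.78 ± 0.16 (edgeR adjusted p 0.00423). In control mice SCFA went with lower Il3ra (-1.18 ± 0.26, edgeR adjusted p 0.00971, lost at 0.0572 without control SCFA 3) and lower Il4ra (-1.13 ± 0.20, edgeR adjusted p 0.00497), 2 of the 12 being lower and 0 higher. In STAT3C mice Csf2ra, the alpha chain of the GM-CSF receptor, was higher with SCFA (0.46 ± 0.12, edgeR adjusted p 0.0315), a call lost without STAT3C untreated 2 or 3 or STAT3C SCFA 2 or 3 (0.0792 to 0.116) and with the replicate block (0.0520). The shared beta chain Csf2rb and Kit, the stem cell factor receptor of mast cells, were not called, with edgeR adjusted p of at least 0.0697 and 0.125 in the 4 comparisons. Of 10 cytokines and chemokines acting on the lineages 5 were tested, and Il3, Il9 and Ccl11 had 0 counts throughout. Il33, an alarmin acting on basophils and mast cells, had 0 counts in STAT3C SCFA libraries, against 73 in STAT3C untreated, 52 in control SCFA and 45 in control untreated libraries, summed over 3 libraries each. Of the control SCFA libraries, replicate 3 also had none.

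All 21 lineage transcription factors listed were tested, and 8 were called in the interaction, 7 with a higher and 1 with a lower SCFA difference in STAT3C mice. With SCFA 7 were lower and 1 higher in control mice, and 3 were higher and 0 lower in STAT3C mice. The shares called were 38.1% in the interaction (25.0% of all genes), 38.1% for SCFA in control mice (21.6%) and 14.3% in STAT3C mice (9.39%). Trib1, a pseudokinase that acts on C/EBP proteins, had 28.9, 35.4 and 35.6 CPM in STAT3C SCFA and 19.0, 19.9 and 19.6 CPM in STAT3C untreated libraries (log2 fold change 0.77 ± 0.15 SE, edgeR adjusted p 0.00550), and was called in all alternatives. Gata2, needed for basophils and mast cells, had 27.2, 42.4 and 37.1 CPM in STAT3C SCFA and 17.5, 20.3 and 18.4 CPM in STAT3C untreated libraries (log2 fold change 0.92 ± 0.19 SE, edgeR adjusted p 0.00782). Gata1, needed for eosinophils, was at 0.53 ± 0.14 there (edgeR adjusted p 0.0274), a call lost without any 1 of the STAT3C untreated libraries or STAT3C SCFA 2 or 3 (0.0512 to 0.101) and without the filter on low counts (0.0782). Between these groups all 6 eosinophil genes were lower, and summed megakaryocyte markers were higher, at 954 to 1154 against 461 to 577 CPM. Which cells carried the rise of Gata1 and Gata2 was not tested. Spi1 (PU.1) had 266, 232 and 213 CPM in control SCFA and 349, 488 and 396 CPM in control untreated libraries (-0.79 ± 0.15, edgeR adjusted p 0.00652). Cebpb had 219.8, 177 and 149 CPM in control SCFA and 274, 383 and 344 CPM in control untreated libraries (-0.87 ± 0.19, edgeR adjusted p 0.00870), a call lost at 0.0592 without control SCFA 3. Irf8, a factor of monocytes and basophils, was also lower there (-0.73 ± 0.18, edgeR adjusted p 0.0151), a call lost without control untreated 2 or control SCFA 2 or 3 (0.0517 to 0.0804). By genotype, 2 were higher and 4 lower without SCFA and 7 higher and 1 lower under SCFA, shares of 28.6% (14.5% of all genes) and 38.1% (17.1%). Without SCFA Id2 was higher (0.58 ± 0.15, edgeR adjusted p 0.0217) and Irf8 (-0.69 ± 0.18, 0.0241) and Bhlhe40 (-0.61 ± 0.17, 0.0291) lower in STAT3C mice. The calls of all 3 were lost without control untreated 2 or 3 or STAT3C untreated 1 or 2 (0.0513 to 0.135) and with only the groups compared (0.0735 to 0.0843). Cebpb (1.11 ± 0.19, edgeR adjusted p 0.00140) and Spi1 (0.88 ± 0.15, edgeR adjusted p 0.00159) were higher and Ikzf1 lower (-0.57 ± 0.11, edgeR adjusted p 0.00264) in STAT3C mice under SCFA.

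Of 15 genes that carry the IgE receptor signal, which include Fcer1a, Ms4a2 and Fcer1g, 3 were higher and 5 lower in STAT3C mice without SCFA, and 2 were higher and 2 lower under SCFA. These are 53.3% and 26.7% of the list, beside 14.5% and 17.1% of all genes. The 3 that were higher without SCFA were the 3 receptor chains, while the kinase Syk was lower (-0.74 ± 0.16, edgeR adjusted p 0.00851, 0.0513 with only the groups compared). Phospholipase Plcg1 was lower too (-1.45 ± 0.37, edgeR adjusted p 0.0211), a call lost without control untreated 2 or STAT3C untreated 1 or 2 (0.0915 to 0.112) and with only the groups compared (0.0673). Lat, an adaptor that T cells and mast cells use, had 13.7, 18.0 and 15.7 CPM in STAT3C SCFA and 8.08, 7.10 and 6.12 CPM in STAT3C untreated libraries (1.15 ± 0.23, edgeR adjusted p 0.00566). The kinase Fyn had 25.0, 20.9 and 24.2 CPM in STAT3C SCFA and 38.5, 33.8 and 43.0 CPM in STAT3C untreated libraries (-0.72 ± 0.14, edgeR adjusted p 0.00451). With SCFA 2 of the 15 rose and 1 fell in STAT3C mice (3 of 15, beside 9.39% of all genes), and 1 rose and 3 fell in control mice (4 of 15, beside 21.6%). Much of this pathway also works in neutrophils, monocytes and B cells.

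**Figure D5:**
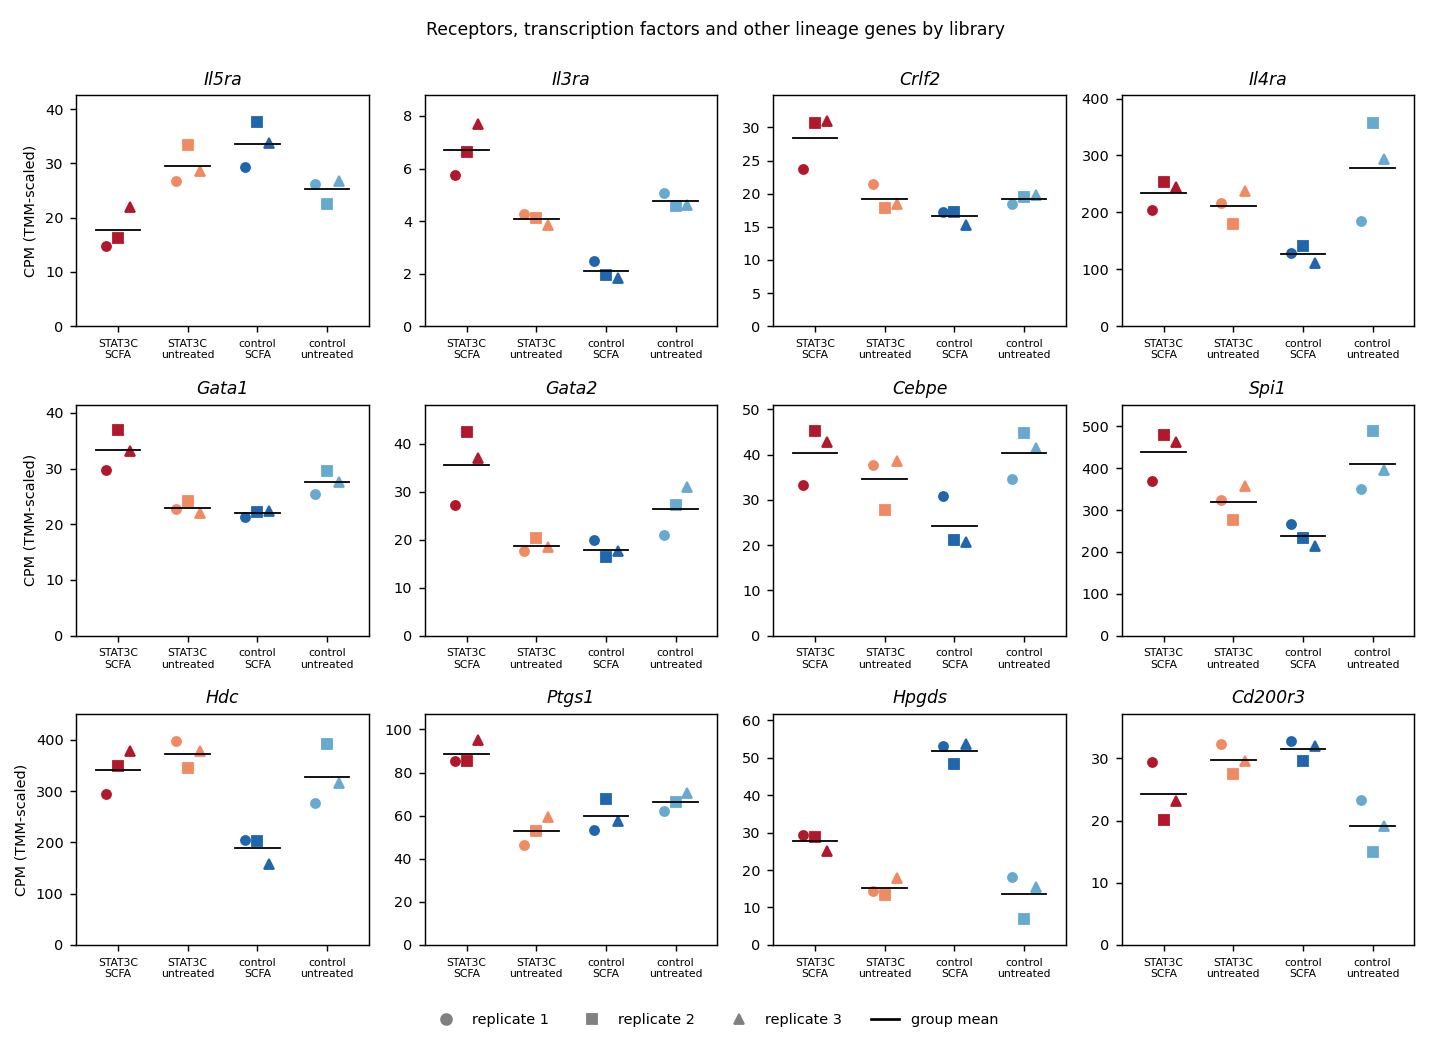
CPM by library (vertical axes from 0, TMM-scaled) of 12 receptors, transcription factors and other genes of the lineages, each called in the interaction of genotype and SCFA, with shapes for replicate numbers and bars for group means. Il5ra is lowest and Il3ra, Crlf2, Gata2 and Ptgs1 have their highest mean in STAT3C SCFA libraries, while Hpgds is highest in control SCFA libraries.

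Likeness of pattern was measured over the 12 libraries, which all genes share, as the mean absolute difference between log2 CPM scaled to mean 0 and SD 1, among 9517 genes that averaged 5 CPM or more. Among the 5 genes nearest to the mean profile of the eosinophil genes were Ifi27 (0.341), Cldn13 (0.347), Slc6a9 (0.365) and Ank1 (0.372). The 6 genes themselves lay at 0.432 to 0.551 from their own mean, and the median over all genes compared was 0.987. Cldn13, a claudin gene, averaged 12.6 ± 1.52 CPM in STAT3C SCFA, 36.6 ± 1.14 in STAT3C untreated, 16.0 ± 2.76 in control SCFA and 40.9 ± 6.25 CPM in control untreated libraries (SD, n = 3 each). The genes nearest to the basophil and mast profile were Csta2 (0.186), Cstdc5 (0.191), Stfa1 (0.200), Bst1 (0.204) and Stfa2 (0.205), of which 4 are stefins or related cysteine protease inhibitors with near-identical copies in the mouse genome. The 4 basophil and mast genes lay at 0.317 to 0.473, and the median over all genes was 0.989. Stfa1 averaged 132.5 ± 14.6 CPM in STAT3C SCFA, 87.9 ± 26.2 in STAT3C untreated, 32.4 ± 5.01 in control SCFA and 23.3 ± 13.7 CPM in control untreated libraries. In both sets the nearest genes lay closer to the mean profile than any of the genes that made it. They were picked as the closest of 9517 genes, so this is no result about the genes of either set.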

How the data were processed

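Poly(A) RNA of 12 libraries was sequenced, and the deposited values are unnormalized counts per gene symbol, which the authors made with STAR and featureCounts on mm10, per the submitters' processing notes. For program versions, annotation release, strand setting and reads matching several genes, no entry was given in the sources used here. Libraries were grouped by their labels. Within a group, replicates differed beyond sampling noise (chi-square per degree of freedom 12.6 to 96.2 for pairs of libraries). Each library counted as 1 sample. That spread does not show that replicates came from separate mice, which the labels do not say. No column of per-sample values was left out.

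Counts were fitted with edgeR 4.0.16 (TMM, filterByExpr by group, robust quasi-likelihood test, 1 mean per group over all 12 libraries), which kept 15674 genes, and adjusted by Benjamini-Hochberg over all of them. The test was run on simulated data first. SE is the size of the log2 fold change divided by the square root of its F statistic. The interaction is the genotype difference under SCFA minus that without SCFA. Alternatives were limma-voom with quality weights (limma 3.58.1), DESeq2 1.42.0, RLE size factors, all genes with any count, the replicate number as a block, only the groups compared, and each library left out in turn.

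The members, lists and tests were chosen with earlier results of these data known. Named were the 10 members and, of each list and comparison, up to 3 called genes with the smallest p and those called in the interaction, plus genes whose non-call or 0 count is described and the genes of most like pattern, of which 1 is not reported here. Gene positions come from GENCODE M21 and start regions from RefSeq, matched by symbol. Precision is limited by 3 libraries per group and by 16954355 to 20748995 counts per library. R 4.3.3 and Python 3.11.15 were used.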

Additional observations from a re-analysis of the deposited data

Results flagged for a closer look

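In 26 of the 71 tested genes of the lists, without the 10 members, the SCFA difference was not the same in STAT3C and control mice by the interaction test (edgeR adjusted p under 0.05). This is 36.6%, beside 25.0% of all genes tested. Values are the log2 SCFA difference in STAT3C mice minus that in control mice.

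Among the further eosinophil genes, the lipoxygenases Alox15 and Alox5 stood at 1.00 (adjusted p 0.00297) and 1.32 (0.00452), Il5ra at -1.15 (0.00615) and Hpgds at -1.06 (0.0446). The call of Hpgds was lost in 10 of the 12 fits that left out 1 library, all but those without control untreated 1 or 2 (0.0561 to 0.135). Among the basophil and mast genes Ptgs1 was at 0.90 (0.00488), Cd200r3 at -1.01 (0.0136) and Hdc at 0.66 (0.0350). Hdc lost its call without control untreated 2, STAT3C untreated 1 or 2, or replicate 2 or 3 of either SCFA group (0.0546 to 0.105), and with the replicate block (0.0504).

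Of the receptors, Il3ra was at 1.89 (0.00353), Il4ra at 1.27 (0.00639) and Crlf2 at 0.78 (0.0215), the last lost without STAT3C untreated 2, control SCFA 3 or STAT3C SCFA 2 or 3 (0.0573 to 0.0614). Il33 had 0 counts in STAT3C SCFA libraries and no fold is given (adjusted p 0.0178 by edgeR, 0.0767 by limma-voom).

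Of the transcription factors, Spi1 was at 1.25 (0.00217), Gata2 at 1.48 (0.00281), Cebpb at 1.44 (0.00297), Stat5b at 1.08 (0.00638) and Gata1 at 0.86 (0.00800). Ikzf1, at -0.53 (0.0209), lost its call without STAT3C untreated 2, control SCFA 3 or STAT3C SCFA 2 (0.0523 to 0.0586). Cebpe, at 0.95 (0.0229), lost it without STAT3C untreated 2 or replicate 2 or 3 of either SCFA group (0.0593 to 0.0687). Id1, also at 0.95 (0.0272), lost it without STAT3C untreated 1 or 2, control SCFA 2 or 3, or STAT3C SCFA 1 or 3 (0.0607 to 0.0790).

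In the IgE receptor pathway Plcg2 was at 1.06 (0.00938), Lat at 1.28 (0.0122), Vav1 at 0.98 (0.0142) and Inpp5d at 0.92 (0.0147). Lat2, at 1.26 (0.0199), lost its call without STAT3C untreated 2, control SCFA 3 or STAT3C SCFA 2 or 3 (0.0528 to 0.0643), and Syk, at 0.75 (0.0244), without these or STAT3C untreated 1 (0.0527 to 0.0647). Btk, at -0.55 (0.0359), lost it in 9 of the 12 fits, all but those without control untreated 3, control SCFA 1 or STAT3C SCFA 1 (0.0584 to 0.109). Without the filter on low counts Btk (0.125) and Ikzf1 (0.137) were not called.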

How the results depend on the processing

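Of 890 values and calls of the 10 genes under the alternatives, 765 kept their direction and side of the threshold, 40 lost a call, 54 gained one and 31 changed sign, 0 of them where called in either fit. The cause of these changes was not tested. The values that changed sign are log2 fold changes near 0. Without SCFA, Ear6 stood at 0.0197 with RLE and with DESeq2, at 0.0186 with only the groups compared, at 0.0338 with limma-voom and at 0.0088 with the replicate block, and at -0.23 to 0.21 with 1 library left out, and Prg3 at -0.173 to 0.0252. With SCFA in STAT3C mice, Prss34 was at 0.0061 without the filter and -0.067 to 0.0481 with 1 library left out, and Cpa3 at -0.0008 with limma-voom and -0.0846 to 0.152. With SCFA in control mice, Ear1 was at -0.18 to 0.37, Ear2 at 0.0383 with limma-voom and -0.37 to 0.27, and Ear6 at -0.376 to 0.0384.

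Over all genes, the count called for genotype without SCFA was 3465 by DESeq2, 3914 by limma-voom and 885 with only the groups compared, against 2274. Under SCFA it was 4756 by limma-voom, against 2687. For SCFA in STAT3C mice it was 2310 by DESeq2 and 2983 by limma-voom, against 1472, and in control mice 1968 with only the groups compared, against 3392. With 1 library left out these counts ran from 755 to 4339, 1415 to 3290, 743 to 2016 and 619 to 5077 in that order, and from 2433 to 5341 for the interaction.

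Eosinophil genes called without SCFA were 1 by limma-voom and 0 to 3 with 1 library left out. Under SCFA they were 0 with RLE and with the replicate block, 2 with only the groups compared, 3 by limma-voom and 0 to 2 with 1 library left out. For SCFA in STAT3C mice they were 5 without the filter, 6 by DESeq2, limma-voom and only the groups compared, and 1 to 6 with 1 library left out. In control mice they stayed at 3. In the interaction they were 2 without the filter and by DESeq2, 4 by limma-voom and 0 to 5 with 1 library left out. Basophil and mast genes called were 3 without the filter and with only the groups compared for genotype without SCFA, against 4. Under SCFA they were 4 in these 2 fits and by limma-voom, against 3. They were 1 by DESeq2 and limma-voom in the interaction and 1 with only the groups compared for SCFA in control mice, where DESeq2, limma-voom and the replicate block gave 4, against 3. With 1 library left out they were 3 to 4 for both genotype comparisons, 0 to 1 and 1 to 4 for SCFA in STAT3C and control mice, and 0 to 2 in the interaction.

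Without Prg2 and Prss34 the log2 ratio of the sums was 1.29 in STAT3C untreated, 1.64 in control SCFA and 2.16 in control untreated libraries, against 1.11, 1.36 and 1.83 with them. In STAT3C SCFA libraries it was 0.43, against 0.49.

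Same-numbered libraries did not deviate together (r from -0.114 to 0.108 over 18 pairs, 1 above 0.1), so the numbers were not taken as a pairing. With the replicate block 2032, 2419, 1270 and 3195 genes were called for genotype without and under SCFA and for SCFA in STAT3C and control mice, and 3677 in the interaction.

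With 3 libraries a group, calls near the threshold often turned on 1 library. The replicates that differed most in counts were control untreated 1 and 2. Counts of Ear1 and Ear2 depend on how reads in shared stretches were assigned. SCFA and the label date cannot be told apart.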
